A study of Mus musculus with 186 samples.

Results

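The 64 genes described here were late response genes of cultured mouse cortical neurons whose response to sustained activity was smaller when protein synthesis was blocked with cycloheximide. They were chosen by measured values from the 298 genes of a capture panel. A gene entered when its mean captured level after 360 min of sustained activity was at least 1 log2 unit above the unstimulated mean and its mean at 60 min was not, with 0.01 added to every mean. Its log2 change over 360 min in cycloheximide also had to lie at least 0.7 below its change in vehicle cultures of the same experiment. Of the 298 genes, 194 met the first criterion, 158 the first and second, and 71 all of them. Acan, Spry4, Per2, Nptx2, Dusp4, Bdnf and Dusp14 were then left out by name, which gave the 64. The other 81 late genes met the time criteria only. These values chose the genes, so they are given as description with no test.

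The series used hybrid capture of RNA from genes regulated by neuronal activity, in cortical neuron cultures from CD1 mouse embryos and in visual cortex of adult male C57/Bl6 mice. Cultures were activated for a sustained or a brief period by a means that the labels do not give, in DMSO vehicle or in U0126, which inhibits the kinase MEK upstream of ERK. Sustained vehicle cultures had 3 replicates after 20 min, 7 after 60 min and 6 after 360 min. Brief vehicle cultures had 3, 7 and 5 for those times, and 7 unstimulated vehicle replicates served both. The U0126 cultures under sustained activity had 3 replicates after 20 min, 3 after 60 min and 2 after 360 min, and 3 were unstimulated. A separate experiment had 2 cultures each of cycloheximide at 360 min of sustained activity, vehicle at 360 min, unstimulated cycloheximide and unstimulated vehicle. In visual cortex, one table held sustained light for 30 or 150 min (3 samples each) and darkness for those times (2 each), after corn oil or the MEK inhibitor SL327. The other held corn oil with brief light for 30 min (3 samples) or 150 min (2 samples) against darkness for 30 min (3) or 150 min (2), and SL327 groups that were not tested here. Total RNA libraries from the cultures, 2 per group, gave reads in introns, and a second capture of enhancer regions had 4 replicates at 60 min of sustained activity and 4 unstimulated.

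Neuronal activity first induces genes whose transcription needs no new protein, many of which encode transcription factors such as Fos and Npas4. These factors then drive a later set of genes that encode secreted factors, channels and other proteins that alter synapses and excitability. Cycloheximide blocks translation, so it separates transcription that needs newly made proteins from transcription that does not, and it can also stabilise short-lived mRNAs and raise the expression of early genes.

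In the gene capture, a level of 1 equals the mean of 47 control genes of the panel in the same library, and none of the 64 genes is a control gene. Levels are not corrected for transcript length, so they are compared between samples and not between genes. Library depth ran from 347529 to 3295698 reads in the sustained vehicle table, from 1253748 to 7695002 reads in the cycloheximide experiment and from 1467835 to 3227592 reads in U0126. It ran from 379220 to 5744389 reads in the sustained cortex table and from 10486281 to 25945718 reads in introns. One brief 60 min library, replicate 2, held 8498 reads, and 46 of the 64 genes lay more than 2-fold from the group median in it. The unstimulated libraries of replicate 5 also stood apart: 23 of the 64 genes lay more than 2-fold from the median in the vehicle library, and 16 and 22 in the U0126 libraries. Several counts and named calls that rest on these libraries are given with and without them. Counts by role and the other U0126 calls named with values include replicate 5, and those calls also passed without it. The panel holds 0 of the cell type markers examined. In intron RPM, sustained 60 min libraries summed to 3134 and 3784 over the neuron markers, against 2832 to 3727 in unstimulated libraries. The astrocyte markers summed to 365 to 537 RPM at 60 min, against 435 to 538 RPM. Progenitor markers summed to 78.9 and 240.9 RPM at 60 min, against 91.5 to 220.4 RPM. Oligodendrocyte lineage markers summed to 68.1 and 139.9 RPM, against 80.3 to 151.3 RPM. At 60 min glutamatergic markers summed to 48.55 and 63.2 RPM and GABAergic markers to 69.5 and 132.7 RPM. Microglial markers summed to 4.41 and 4.61 RPM at 60 min, with Cx3cr1 and Tmem119 at 0, against 4.05 to 4.62 RPM. In bulk samples fewer cells of a type and less RNA per cell cannot be told apart. The replicate number of the unstimulated cultures marks a dissection per the labels, which do not tie the other groups to those dissections. The p-values measure the spread between such replicates.

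After 360 min of sustained activity the median log2 change over unstimulated was 1.70 for the 64 genes, with a range of 1.02 to 3.00, while the panel's median was 1.45. Every sustained 360 min replicate lay above every unstimulated replicate in 40 of the 64 genes, where 41.9% of the panel did so. Without unstimulated replicate 5 this held for 43 genes, and for 52.7% of the panel. In 36 genes the 360 min replicates lay wholly above the 60 min replicates, with 35.6% of the panel doing so. None of the 64 lay wholly above unstimulated at 60 min, against 9.73% of the panel, and since the rule used this contrast nothing is read from the count. At 20 min the median log2 change was 0.01 and 31 of the 64 values were below 0.

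The genes are taken in order of the roles of their products. Channels and channel regulators were Kcna1 and Kcna4, subunits of voltage-gated potassium channels, Kcnj4, an inward rectifier potassium channel, Stac, an adaptor of calcium channels, and Gem, a small GTPase that inhibits calcium channels. Kcna1 ran from 0.469 to 1.21 with a median of 0.910 at 360 min of sustained activity, against 0.0803 to 0.281 with a median of 0.155 unstimulated. Kcnj4 ran from 0.479 to 1.43 with a median of 0.637, against 0.0258 to 0.369 with a median of 0.210. The sustained replicates of both genes lay above all unstimulated ones. Gem ran from 0.241 to 0.519 with a median of 0.425, against 0.0425 to 0.487 with a median of 0.0584, and its groups overlapped through unstimulated replicate 5.

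Among secreted factors were Pnoc, the precursor of the neuropeptide nociceptin, Nppc, which encodes C-type natriuretic peptide, the stanniocalcins Stc1 and Stc2, the growth factor Igf1, Bmp3, its family's antagonist Sostdc1 and the guidance cue Sema3e. Pnoc ran from 0.0574 to 0.223 with a median of 0.121 at 360 min, against 0.0114 to 0.0226 with a median of 0.0209 unstimulated. Stc1 ran from 0.419 to 0.869 with a median of 0.587, against 0.136 to 0.294 with a median of 0.186. Neither gene's groups overlapped. Over all 8 secreted factors the median log2 change at 360 min was 1.62, on replicate means.

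Extracellular enzymes and matrix proteins were Serpinb2, an inhibitor of plasminogen activators, Col10a1, a collagen chain, Lipg, endothelial lipase, Tnn, a tenascin, and Tll1, a tolloid-like metalloprotease. Serpinb2 ran from 0.00371 to 0.146 with a median of 0.0605 at 360 min, against 0.00101 to 0.00324 with a median of 0.00204 unstimulated. Lipg ran from 0.369 to 1.08 with a median of 0.652, against 0.100 to 0.164 with a median of 0.124. The groups did not overlap in either gene. Col10a1 ran from 0.00519 to 0.0985 with a median of 0.0488, while the unstimulated replicates ran from 0 to 0.00209, so the added 0.01 sets the size of its log2 change.

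The receptors were Gpr3, a G-protein coupled receptor with constitutive activity, Tacr3, the neurokinin B receptor, Nmbr, the neuromedin B receptor, Tnfrsf12a, the receptor of the cytokine TWEAK, and Cr2, a complement receptor. Membrane and adhesion proteins were Nrn1, which encodes the neurite growth factor neuritin, Omg, the oligodendrocyte myelin glycoprotein, Lppr4, a lipid phosphatase-related protein of synapses, Slitrk4, a synaptic adhesion protein, the Popeye domain proteins Popdc3 and Bves, the C2 domain protein Mctp2, Palmd and Mfap3l. Lppr4 ran from 2.56 to 4.45 with a median of 4.08 at 360 min, against 0.0594 to 2.21 with a median of 1.35 unstimulated. Nrn1 ran from 0.302 to 1.04 with a median of 0.630, against 0.0639 to 0.159 with a median of 0.116. In both genes the 360 min replicates lay above all unstimulated ones. Tnfrsf12a ran from 0.235 to 0.556 with a median of 0.442, against 0.0454 to 0.931 with a median of 0.0729, and unstimulated replicate 5 held its highest value of all.

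The transporters were Slc40a1, the iron exporter ferroportin, Slc7a1 and Slc7a3, which carry cationic amino acids, and Slc7a8, which carries neutral ones. Slc7a1 ran from 1.30 to 4.18 with a median of 2.96 at 360 min, against 0.610 to 1.29 with a median of 0.937 unstimulated. Its lowest 360 min replicate lay just above its highest unstimulated one.

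Nuclear regulators were Rel, a subunit of the transcription factor NF-kB, Hdac9, a class IIa histone deacetylase, Maml3, a Notch coactivator, Plagl1, an imprinted zinc finger protein, Fezf2, a transcription factor of deep-layer projection neurons, and Gmeb2, a DNA-binding protein. Rel ran from 0.0987 to 0.266 with a median of 0.125 at 360 min, against 0.0142 to 0.0332 with a median of 0.0187 unstimulated. Hdac9 ran from 2.70 to 7.25 with a median of 3.71, against 0.466 to 1.33 with a median of 1.09. Gmeb2 ran from 0.782 to 1.15 with a median of 1.01, against 0.257 to 0.446 with a median of 0.293. None of these groups overlapped, and the median log2 change of the 6 nuclear regulators on replicate means was 1.98.

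Signalling proteins were the kinases Sik3, Hunk and Ripk2, Dennd2c, of a family that activates Rab GTPases, Rab39, itself a Rab GTPase, Garem, an adaptor of growth factor signalling, Arhgap29, and Trip10, which binds Cdc42. Dennd2c ran from 0.179 to 0.552 with a median of 0.347 at 360 min, against 0.0316 to 0.0806 with a median of 0.0407 unstimulated. Hunk ran from 0.151 to 0.580 with a median of 0.303, against 0.0927 to 0.313 with a median of 0.135. The groups of Dennd2c did not overlap and those of Hunk did.

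The remaining 14 genes were Brinp1, a neuronal protein that restrains the cell cycle, the imprinted gene Zdbf2, the neurofilament gene Nefm, the small heat shock gene Hspb3, Sult2b1, a sterol sulfotransferase, Chac1, which degrades glutathione, Fam126b, Klhl4, Mlf1, Osgin2, Sowahb, D16Ertd472e, 9430020K01Rik and 5430416O09Rik. Brinp1 ran from 5.09 to 10.7 with a median of 6.82 at 360 min, against 0.925 to 2.97 with a median of 1.83 unstimulated. Zdbf2 ran from 3.19 to 8.51 with a median of 5.08, against 0.372 to 1.31 with a median of 0.580, and it had the highest log2 change of the 64 genes, 3.00. Both genes were clear of overlap.

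Fam126b ran from 1.04 to 5.19 with a median of 2.87 at 360 min of sustained activity, against 0.377 to 0.963 with a median of 0.818 unstimulated. The uncharacterised gene 9430020K01Rik ran from 1.09 to 2.27 with a median of 1.16, against 0.276 to 0.968 with a median of 0.306. The groups of both genes did not overlap, though the lowest Fam126b value at 360 min lay close to the unstimulated range.

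**Figure D1:**
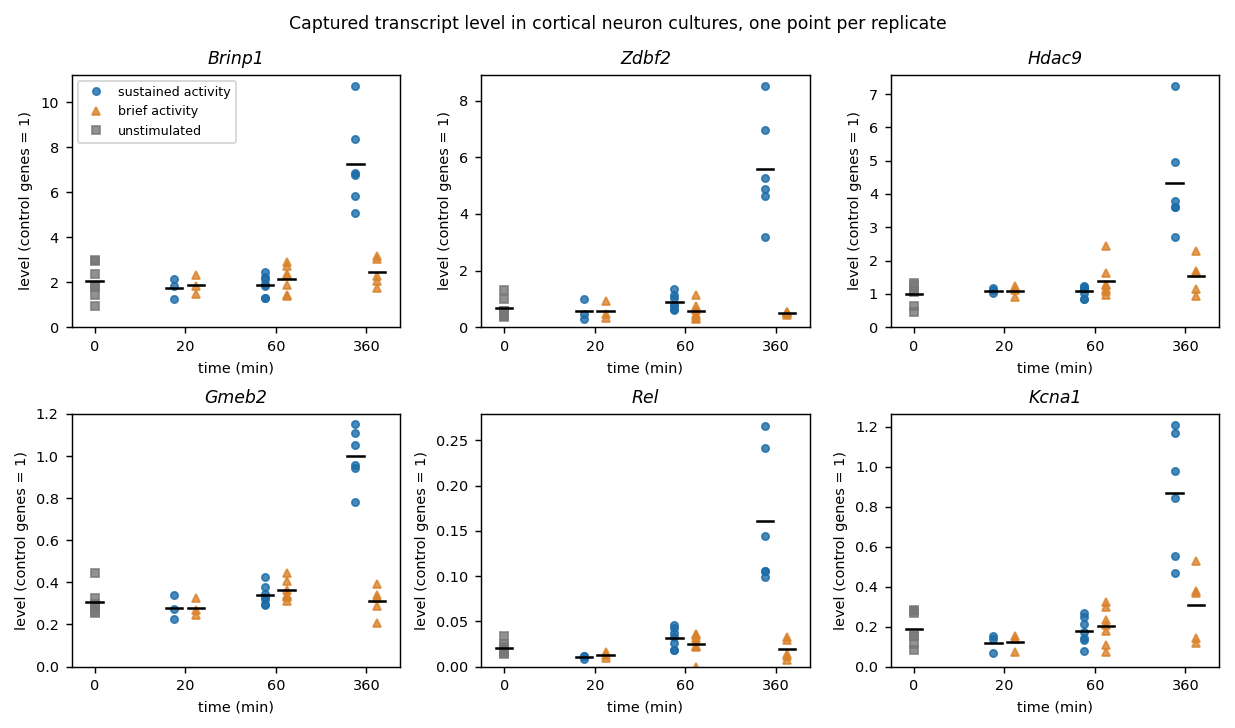
Captured level (a level of 1 is the mean of the control genes, linear axis) against time in minutes, drawn equally spaced, for Brinp1, Zdbf2, Hdac9, Gmeb2, Rel and Kcna1. Each point is 1 replicate, bars are means, circles are sustained activity, triangles brief activity and squares unstimulated cultures; in each gene the sustained points at 360 min lie above the unstimulated ones, as for Kcna1 at 0.469 to 1.21 against 0.0803 to 0.281.

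The genes nearest the thresholds were as follows. For the change at 360 min, Nmbr (1.02) and Ripk2 (1.10) lay just inside, and Spred3 (0.96) and Slc2a1 (0.97) just outside. For the change at 60 min, Nrn1 (0.55) and Nefm (0.67) lay just inside, and Pcdh8 (1.30) and Sertad1 (1.42) just outside. For the cycloheximide difference, Fam126b (-0.72) and Tnn (-0.70) lay just inside, and Trim66 (-0.68) and Baz1a (-0.67) just outside.

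Promoters were available from RefSeq (GRCm38.p6) for 43 of the 64 genes, 2 of them through an older symbol. That is 67.2% of the genes, too few to give a share over the set. Windows of 250 bases before to 50 bases after each start were searched on both strands for TGANTCA, the motif of AP-1 factors such as Fos and Jun, and for TGACGTCA, the full cAMP response element of CREB. Of all 32851 promoters in the table, 7.81% held the first motif and 1.79% the second. Of the 287 promoters found for panel genes, 6.62% held the first and 6.97% the second. For the other late genes it was 5.63% and 12.7% of 71 promoters. All promoters are thus no like background for the second motif, and no excess of either motif is read. Further motifs were also searched, and their matches are not listed. Among them were a shorter form of the cAMP response element and motifs named for NPAS4 and EGR. TGANTCA was in a promoter of Fezf2, Gpr3, Hdac9, Igf1, Mlf1, Serpinb2, Slc7a1 and Sult2b1, and TGACGTCA in one of Mlf1 and of Zdbf2. A match is a description of the letters and no evidence of binding. Printed here are the 200 bases before the start for 4 of these genes that are described in several experiments of the series, with the motif in capitals, for Hdac9 at chr12:34528890-34529089 on the minus strand, Slc7a1 at chr5:148399905-148400104 on the minus strand, Sult2b1 at chr7:45742479-45742678 on the minus strand and Zdbf2 at chr1:63273069-63273268 on the plus strand.
Hdac9: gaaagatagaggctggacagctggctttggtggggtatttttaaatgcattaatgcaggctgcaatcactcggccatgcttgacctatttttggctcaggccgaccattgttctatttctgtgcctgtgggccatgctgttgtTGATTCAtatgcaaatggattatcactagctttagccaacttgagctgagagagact
Slc7a1: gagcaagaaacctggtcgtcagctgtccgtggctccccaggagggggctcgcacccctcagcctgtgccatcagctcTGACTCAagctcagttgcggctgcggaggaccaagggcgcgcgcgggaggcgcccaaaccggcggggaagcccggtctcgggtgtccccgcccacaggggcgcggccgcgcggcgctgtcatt
Sult2b1: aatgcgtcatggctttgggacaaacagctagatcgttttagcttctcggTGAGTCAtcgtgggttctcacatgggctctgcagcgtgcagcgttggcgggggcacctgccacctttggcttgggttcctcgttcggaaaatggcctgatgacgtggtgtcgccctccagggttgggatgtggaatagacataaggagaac
Zdbf2: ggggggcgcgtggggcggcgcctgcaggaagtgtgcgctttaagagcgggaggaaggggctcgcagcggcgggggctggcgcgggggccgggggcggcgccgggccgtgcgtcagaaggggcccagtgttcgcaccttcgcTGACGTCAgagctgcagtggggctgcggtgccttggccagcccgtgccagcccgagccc
The first base of the motif lay at -57 from the start in Hdac9, at -123 in Slc7a1, at -151 in Sult2b1 and at -59 in Zdbf2.

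By the rule all 64 genes had a smaller change in cycloheximide than in vehicle, and the size of the change that remained varied. The median log2 change over 360 min was 0.63 in cycloheximide and 2.26 in vehicle, where the other late genes had 2.20 in cycloheximide and 2.00 in vehicle. In cycloheximide the change was below 0 in 10 genes, between 0 and 1 in 34 and at least 1 in 20. Over the panel it was below 0 in 54 and at least 1 in 156 of 298 genes. Thus 20 of the 64 genes kept in cycloheximide a change of the size that the rule asks of vehicle cultures. The genes are therefore called late genes with a smaller response in cycloheximide, and not genes that need new protein. The level at 360 min in cycloheximide had a median of 35.3% of that in vehicle over the 64 genes, and a median of 110% over the other late genes. It was at most 25% in 27 genes and at most 50% in 46, against 42 and 86 of the 298 panel genes. The rule used these samples, so nothing is read from the counts.

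Cycloheximide cultures at 360 min lay wholly below vehicle cultures at 360 min in 53 of the 64 genes, and in 38.3% of the panel. Only Gem lay wholly above, where 28.9% of the panel did so. They lay wholly above unstimulated cycloheximide cultures in 44 of the 64, against 68.1% of the panel, and vehicle at 360 min lay wholly above unstimulated vehicle in all 64, against 81.5% of the panel. The rule used these contrasts and nothing is read from the counts.

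Dennd2c had the most negative difference in log2 change, -4.41. Its level was 0.0116 and 0.0404 in cycloheximide at 360 min, against 0.562 and 0.853 in vehicle at 360 min. Without stimulation it was 0.0263 and 0.0248 in cycloheximide, against 0.0293 and 0.0173 in vehicle. The response seen in vehicle was thus not seen in cycloheximide, where the stimulated and unstimulated values overlapped.

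Hunk was the next, with a difference of -3.71. It had 0.0410 and 0.0566 in cycloheximide at 360 min, against 0.673 and 0.203 in vehicle at 360 min. Kcna1 (-3.37) had 0.0954 and 0.0833 in cycloheximide, against 1.26 and 0.730 in vehicle. The fourth, 9430020K01Rik (-2.74), had 0.179 and 0.141 in cycloheximide, against 1.43 and 1.27 in vehicle. In these 3 genes both cycloheximide cultures lay below both vehicle cultures, at 11.1%, 8.98% and 11.9% of the vehicle mean.

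The channel genes had a median difference of -1.94, and 3 of the 5 had a change below 0 in cycloheximide. Kcna4 had 0.414 and 0.427 in cycloheximide at 360 min, against 1.53 and 2.39 in vehicle, and 0.388 and 0.535 in unstimulated cycloheximide cultures. Among secreted factors, Stc1 had 0.175 and 0.116 in cycloheximide at 360 min, against 1.20 and 0.617 in vehicle. Bmp3 had 0.0835 and 0.116, against 1.03 and 0.680. Both were well below vehicle, at 16.0% for Stc1 and 11.7% for Bmp3, whereas 3 of the 8 secreted factors still had a log2 change of at least 1 in cycloheximide.

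Hdac9 had 0.974 and 1.16 in cycloheximide at 360 min, against 11.2 and 5.98 in vehicle. Brinp1 had 2.50 and 2.86, against 11.4 and 11.9. Slc7a1 had 0.226 and 0.646, against 2.33 and 1.48. In each of these the 2 cycloheximide cultures lay below the 2 vehicle cultures.

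Other genes stayed high in cycloheximide. Zdbf2 had 13.4 and 8.29 in cycloheximide at 360 min, against 21.4 and 5.08 in vehicle, and its log2 change was 3.91 in cycloheximide and 4.77 in vehicle. Its 2 groups at 360 min overlapped. Plagl1 and Rel also kept a log2 change of at least 1 in cycloheximide, with 2.24 in cycloheximide and 3.52 in vehicle for Plagl1, and 1.88 in cycloheximide and 3.56 in vehicle for Rel.

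In 6 genes the unstimulated level was at least 2-fold higher in cycloheximide, and a higher starting level makes the computed change smaller. They were Gem, Tnfrsf12a, Gmeb2, Rel, Tacr3 and Nppc, with log2 differences of 2.69, 2.42, 1.90, 1.14, 1.04 and 1.03. On the panel 39 genes were that much higher. The unstimulated cycloheximide cultures lay wholly above the vehicle ones in 18 of the 64 genes and wholly below in 18, where 33.6% and 25.2% of the panel did. Gem had 1.14 and 1.29 in cycloheximide at 360 min, against 0.331 and 0.938 in vehicle at 360 min, and 0.316 and 0.252 in unstimulated cycloheximide, against 0.0293 and 0.0418 in unstimulated vehicle. Gmeb2 had 0.670 and 1.26 at 360 min in cycloheximide, against 1.13 and 0.909 in vehicle, and 0.868 and 0.749 in unstimulated cycloheximide, against 0.208 and 0.211 in unstimulated vehicle. For both genes the smaller response came with a higher starting level. Nppc too had 0.417 and 0.226 in cycloheximide at 360 min, against 0.180 and 0.344 in vehicle. In the other direction, Stc1 and Slc40a1 were at least 2-fold lower in unstimulated cycloheximide cultures, by log2 differences of -1.10 and -1.05.

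The percentage of the vehicle level that remained at 360 min in cycloheximide, computed on group means, varied within every role. It was 14.0% for Stac and 39.4% for Kcnj4, and 17.7% for Sema3e, 24.2% for Pnoc, 34.3% for Stc2, 37.4% for Igf1 and 13.9% for Sostdc1. Matrix and enzyme genes had 15.1% for Serpinb2, 15.5% for Tll1, 34.5% for Col10a1, 67.2% for Tnn and 85.4% for Lipg. The lipase thus kept most of its level and the metalloprotease little of it.

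Among membrane proteins, Palmd had 13.1%, Mfap3l 15.1%, Omg 19.6%, Slitrk4 25.9%, Mctp2 35.1%, Nrn1 37.4%, Popdc3 44.9%, Bves 45.2% and Lppr4 61.5% of vehicle. Receptors had 36.0% for Gpr3, 44.4% for Cr2, 44.4% for Tacr3, 50.9% for Nmbr and 92.8% for Tnfrsf12a. The transporters had 19.4% for Slc40a1, 22.9% for Slc7a1, 45.7% for Slc7a3 and 46.5% for Slc7a8. The receptors all kept over 25% of the vehicle level.

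Trip10 had 15.1%, Rab39 16.7%, Arhgap29 26.8%, Garem 47.2%, Ripk2 55.1% and Sik3 56.2% of vehicle. For nuclear regulators it was 12.4% for Hdac9, 35.5% for Fezf2, 50.4% for Plagl1, 68.2% for Rel, 70.7% for Maml3 and 95.1% for Gmeb2. In the last group Hspb3 had 9.97%, Sowahb 19.1%, Chac1 19.2%, Klhl4 20.8%, Brinp1 23.1%, 5430416O09Rik 23.8%, Nefm 35.6%, Fam126b 48.6%, D16Ertd472e 55.2%, Mlf1 58.6%, Osgin2 61.2%, Sult2b1 64.4% and Zdbf2 81.9%. Chac1 had a lower level in stimulated than in unstimulated cycloheximide cultures, with 0.0473 and 0.0614 against 0.0713 and 0.141.

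**Figure D2:**
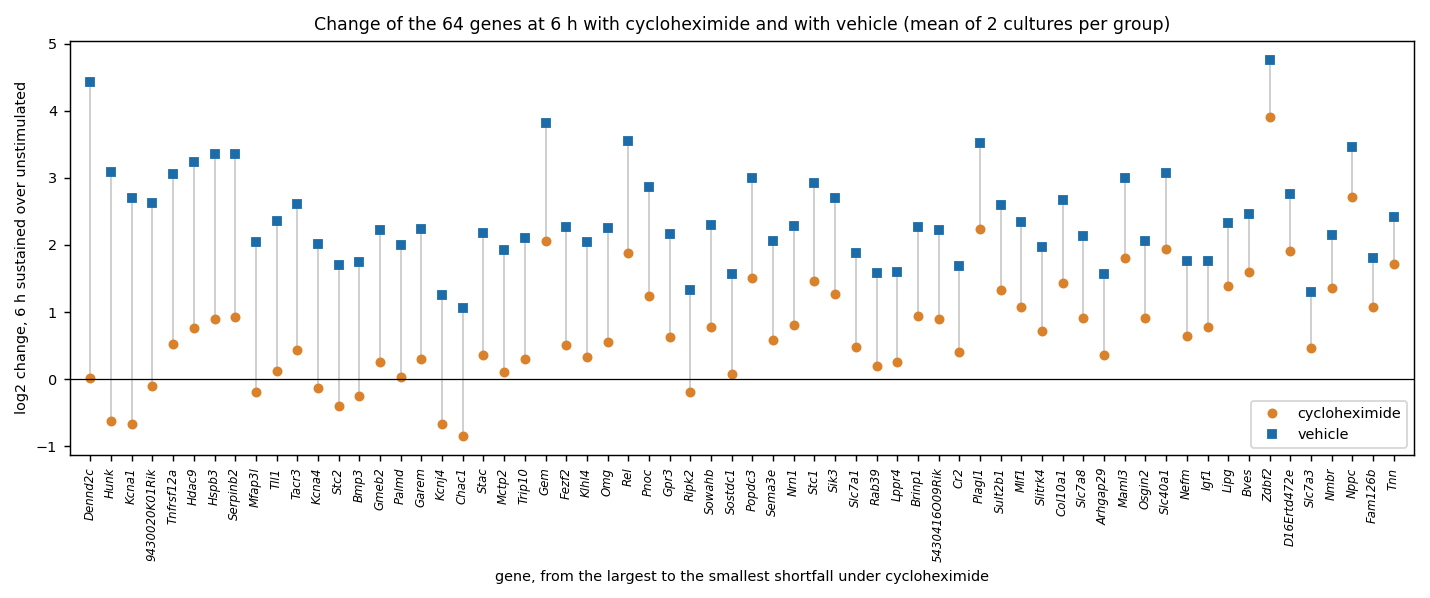
Log2 change from unstimulated to 360 min of sustained activity for the 64 genes, ordered by their difference, with cycloheximide as circles and vehicle as squares (means of 2 cultures, 0.01 added). The median is 0.63 in cycloheximide and 2.26 in vehicle, and the widest gap is that of Dennd2c at -4.41.

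The same values are given for transcription factors of the early response, with no test. The rule chose the 64 genes on this difference, so no contrast with them is read from it. Of 16 inducible AP-1 and neuronal transcription factors on the panel, the median difference between the changes in cycloheximide and vehicle was 0.51. The difference was at most -0.7 in 3 of the 16, and its median over the panel was -0.32. Fosb, Junb and Npas4 had differences of 0.90, 0.79 and 0.68, while Fos had -1.83. Fos stood at 42.4 and 46.6 in cycloheximide at 360 min, against 4.21 and 5.41 in vehicle at 360 min, and at 1.06 and 1.34 in unstimulated cycloheximide, against 0.0230 and 0.0304 in unstimulated vehicle. Its smaller change thus came with a higher level in cycloheximide at both times. For 15 known late response genes of activated neurons, of which Igf1, Nrn1 and Kcna1 are among the 64, the median difference was -0.49, and for 7 feedback regulators of the ERK pathway it was -1.12.

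Few of these genes were called after brief activity. The rule did not use the brief samples, but it used the unstimulated samples that each test sets against them. With limma over all tested panel genes, 1 of the 61 of the 64 genes that passed the filter on low levels rose at 60 min of brief activity against unstimulated, and 0 fell, where 5.36% of the tested panel rose. It was Nrn1, with a log2 change of 0.95 ± 0.29 (SE, adjusted p = 0.0426). Nrn1 ran from 0.147 to 0.444 with a median of 0.200 at brief 60 min, against 0.0639 to 0.159 with a median of 0.116 unstimulated. Its highest brief value was that of the 8498-read library, and the call was lost without that library, without unstimulated replicate 5 and with edgeR on recovered reads.

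At 360 min after brief activity limma called 0 of the 61 genes, and 0% of the tested panel. Unadjusted p was under 0.05 for 2 of them, and edgeR called 0. The unstimulated samples are those of the sustained comparison. The median log2 change of the 64 genes was 0.13, with a range of -0.86 in Trip10 to 0.67 in Kcna1, and 0 of them lay wholly above unstimulated, against 0.336% of the panel. Kcna1 had 0.528, 0.377, 0.365, 0.145 and 0.119 at brief 360 min, so 3 of its 5 values lay above the unstimulated range of 0.0803 to 0.281. Zdbf2 had 0.539, 0.499, 0.539, 0.506 and 0.423, all within its unstimulated range. Brinp1 had 3.17, 3.04, 1.74, 2.26 and 2.04, of which 2 lay above its unstimulated range.

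Sustained 360 min cultures exceeded brief 360 min cultures by a median log2 difference of 1.55 over the 64 genes, and 58 of the 64 differed by at least 1. Of the 81 other late genes 77 differed by at least 1, and of the 298 panel genes 193. The replicates did not overlap in 34 of the 64, and in 46.6% of the panel. These values use the samples that chose the genes and are descriptive.

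In U0126, whose samples the rule did not use, most of these genes still rose. After 360 min of sustained activity, limma called 42 of the 61 tested genes higher than in unstimulated U0126 cultures and 0 lower, where 48.6% of the tested panel was called higher. The median log2 change was 1.87 over the 61 genes and 1.30 over all 280 tested. Bves, Sowahb and 5430416O09Rik did not pass the filter. A gene that passed the filter through the stimulated samples had to be high there, so this count is no support for the set. With the unstimulated libraries of replicate 5 left out in both U0126 and vehicle, 42 genes were called, 40 of them among the first 42: Lipg (0.82 ± 0.46; limma, adjusted p = 0.134) and Sostdc1 (0.78 ± 0.51; limma, adjusted p = 0.202) were lost, and 9430020K01Rik and Ripk2 were gained. The log2 change moved by over 1.5 times in 6 of the called genes, Kcna4, Kcnj4, Klhl4, Lppr4, Slitrk4 and Sostdc1. With the U0126 library alone left out, 35 genes were called. On the scale of the control genes the median of all tested genes shifted by 1.30; with that median set to 0, 7 of the 61 were higher and 0 lower, where 10.7% of the tested panel was higher and 15.7% lower. Replicates did not overlap in 52 of the 64 genes, where 57.7% of the panel were above, or in 57 genes and 68.8% of the panel without unstimulated replicate 5. Against U0126 at 60 min, 31 genes were higher at 360 min and 0 lower, where 31.8% of the tested panel was higher. With the median of all genes set to 0, this became 3 higher and 0 lower, against 3.21% and 10.4% of the panel. At 60 min against unstimulated, limma called 0 of the 61 and 7.14% of the panel; unadjusted p was under 0.05 for 2 of them, and edgeR called 0. Both 360 min calls rest on 2 replicates, and leaving out one of them left 26 or 30 genes against unstimulated and 15 or 20 against 60 min.

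The smallest adjusted p was that of Zdbf2. It had 5.93 and 5.72 in U0126 at 360 min, against 0.347, 0.424 and 0.318 in unstimulated U0126 cultures, a log2 change of 3.98 ± 0.50 (SE; limma, adjusted p = 3.467e-08). Col10a1 had 0.0486 and 0.0935, against 0.000151, 0.000779 and 0.00137 (2.93 ± 0.40; limma, adjusted p = 1.055e-07). Gmeb2 had 1.14 and 0.891, against 0.410, 0.237 and 0.268 (1.73 ± 0.26; limma, adjusted p = 1.343e-06). In all 3 genes both stimulated values lay above all unstimulated ones.

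Hdac9 had 3.17 and 4.33 in U0126 at 360 min, against 0.552, 0.704 and 0.959 unstimulated, a log2 change of 2.35 ± 0.38 (limma, adjusted p = 3.887e-06). Plagl1 had 1.45 and 2.91, against 0.381, 0.301 and 0.463 (2.42 ± 0.45; limma, adjusted p = 3.915e-05). Rel had 0.150 and 0.172, against 0.0383, 0.0148 and 0.0140 (2.51 ± 0.47; limma, adjusted p = 3.915e-05). The groups of these nuclear regulators were also separate.

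By role, 4 of 5 tested channel genes, 6 of 8 secreted factors, 4 of 5 matrix and enzyme genes and 6 of 8 membrane proteins were called higher. So were 3 of 4 transporters, 5 of 6 nuclear regulators, 4 of 8 signalling proteins and 9 of 12 others. The share of the tested panel was 48.6%, and no role is read as differing from it. With U0126 replicate 5 alone left out, Kcna4, Kcnj4, Bmp3, Sostdc1, Lipg, Lppr4, Slitrk4, Nrn1 and Klhl4 were no longer called. Ripk2 and 9430020K01Rik were gained. Of the 5 receptors only Gpr3 was called, with a log2 change of 1.495 ± 0.53 (limma, adjusted p = 0.0175). Called channels included Kcna1, with 0.748 and 0.355 in U0126 at 360 min, against 0.0725, 0.129 and 0.0679 unstimulated (2.46 ± 0.57; limma, adjusted p = 6.473e-04). Brinp1 had 7.50 and 4.99, against 0.488, 2.73 and 1.60 (2.24 ± 0.46; limma, adjusted p = 1.375e-04). Without unstimulated replicate 5 in U0126 and vehicle its log2 change was 1.54 ± 0.40 (limma, adjusted p = 0.00196). Slc7a1 had 1.81 and 3.43, against 0.977, 0.516 and 0.506 (1.96 ± 0.54; limma, adjusted p = 0.00316).

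In Lppr4 and Klhl4 unstimulated replicate 5 lay far below the other 2 unstimulated replicates. Lppr4 had 3.76 and 2.20 in U0126 at 360 min, against 0.0417, 1.54 and 1.52 unstimulated (2.55 ± 0.87; limma, adjusted p = 0.0141), and a log2 change of 0.91 ± 0.32 without replicate 5 in U0126 and vehicle (limma, adjusted p = 0.0204). With the U0126 library alone left out the adjusted p was 0.322 (limma), so the call was lost. Klhl4 had 2.13 and 1.01, against 0.00292, 0.428 and 0.363 (3.55 ± 1.03; limma, adjusted p = 0.00406). Its log2 change was 1.88 ± 0.65 without replicate 5 in U0126 and vehicle (limma, adjusted p = 0.0181), and the call was lost with the U0126 library alone left out (limma, adjusted p = 0.0986). Both stimulated values of each gene lay above all unstimulated ones.

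Rab39, Nmbr, Gem and Tnfrsf12a had log2 changes below 0.5 in U0126 at 360 min. Rab39 had 0.0441 and 0.0207, against 0.0294, 0.0164 and 0.0241 unstimulated (0.32 ± 0.43; limma, adjusted p = 0.574). Nmbr had 0.0357 and 0.00758, against 0.00461, 0.0116 and 0.0197 (0.44 ± 0.64; limma, adjusted p = 0.604). In both genes the groups overlapped and the 2 stimulated replicates differed more than 2-fold.

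Gem had 0.277 and 0.354 in U0126 at 360 min, against 0.656, 0.0826 and 0.229 unstimulated (0.40 ± 0.94; limma, adjusted p = 0.743). Tnfrsf12a had 0.184 and 0.203, against 0.474, 0.0556 and 0.125 (0.33 ± 0.99; limma, adjusted p = 0.798). The high unstimulated value of each is replicate 5, and without it the log2 change was 1.12 for both, with adjusted p of 0.329 for Gem and 0.331 for Tnfrsf12a (limma).

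**Figure D3:**
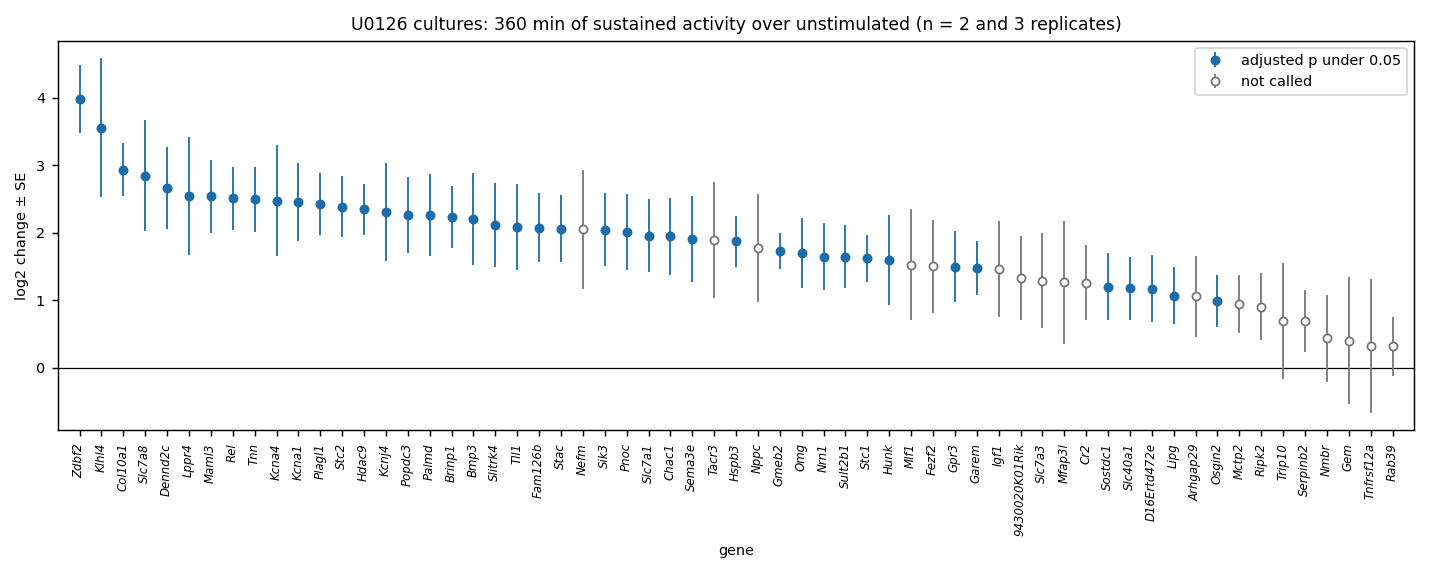
Log2 change ± SE (limma) in U0126 cultures at 360 min of sustained activity (n = 2) over unstimulated (n = 3), one point per tested gene and 61 in all. Filled points are the 42 genes with adjusted p under 0.05, which all lie above 0; Zdbf2 is at 3.98 and Tnfrsf12a at 0.33.

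Set directly beside vehicle at 360 min, U0126 at 360 min had a median log2 difference of -0.16 over the 64 genes and -0.19 over the panel, on replicate means with 0.01 added. It was at most -1 in Serpinb2 (-1.71), Lipg (-1.45) and Tnfrsf12a (-1.10). Serpinb2 had 0.0226 and 0.00413 in U0126, against 0.00371 to 0.146 with a median of 0.0605 in vehicle. Lipg had 0.314 and 0.194 in U0126, against 0.369 to 1.08 with a median of 0.652 in vehicle. The U0126 values lay wholly below those of vehicle in 5 of the 64 genes, Lipg among them, and in 6.71% of the panel, and wholly above in 0, against 0.336% of the panel. The vehicle samples are those that chose the genes, so these differences were not tested. In unstimulated cultures U0126 against vehicle had a median log2 difference of -0.12, and 0 of the 64 genes lay wholly below, against 1.68% of the panel, or wholly above, against 0%.

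Intron reads, which come largely from unspliced RNA, were measured in total RNA libraries that the rule did not use, with 13486 genes tested and 56 of the 64 among them. Col10a1, Garem, Gpr3, Hspb3, Kcna1, Lppr4, Sowahb and 5430416O09Rik were not tested. At 60 min of sustained activity limma called 6 of the 56 genes higher than unstimulated, against 3.34% of all tested genes, and 1 lower, against 5.54% of all. The 56 come from a panel of genes regulated by activity, whose own intron share is not given here. No trait particular to the 64 genes is therefore read from the intron shares. The 6 were Zdbf2, Slc7a1, Rel, Nrn1, Gmeb2 and Slc7a8, and Bmp3 was lower. Leaving out 1 library at a time left 3 genes called without unstimulated replicate 1, 4 without unstimulated replicate 2, 5 without sustained 60 min replicate 1 and 4 without sustained 60 min replicate 2, all higher. Zdbf2 and Slc7a1 were called in all 4 of these fits, Rel and Nrn1 in 3, Gmeb2 in 2, and Slc7a8 and Bmp3 in 0. With edgeR Slc7a8 was not called (adjusted p = 0.0638). With the replicate number as a block more genes were called, as given below. The main fit thus called introns of the named genes at a time when the rule had required less than a doubling in captured RNA. The calls of Slc7a8 and Bmp3 depended on single libraries. Overlapping genes cannot be told apart, since no source used here gives the strand used in counting.

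Zdbf2 introns had 62.6 and 45.6 RPM at sustained 60 min and 15.1 and 15.1 RPM at 20 min, against 4.15 and 4.39 RPM unstimulated. The log2 change was 3.57 ± 0.24 at 60 min (SE; limma, adjusted p = 7.5e-05) and 1.77 ± 0.24 at 20 min (limma, adjusted p = 0.0185). It was the one gene of the 56 called at 20 min, where 0.274% of tested genes were higher, and this call was lost when any 1 of the 4 libraries was left out (limma, adjusted p of 0.125 to 0.167). Brief activity gave 11.5 and 9.08 RPM at 20 min (1.21 ± 0.24; limma, adjusted p = 0.159), which did not pass.

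Slc7a1 introns had 32.8 and 31.03 RPM at sustained 60 min, against 16.2 and 15.8 RPM unstimulated (0.99 ± 0.13; limma, adjusted p = 0.00236). At brief 20 min they had 36.9 and 29.7 RPM (1.04 ± 0.13; limma, adjusted p = 0.0168), the one of the 56 genes called there, where 0.148% of tested genes were higher. The brief 20 min call held without brief replicate 2 (limma, adjusted p = 0.035) and was lost without each of the other 3 libraries. A second transcript model of the gene missed the threshold at brief 20 min, with adjusted p = 0.0592 (limma). Rel had 4.13 and 2.43 RPM at sustained 60 min, against 1.05 and 0.800 RPM (1.56 ± 0.26; limma, adjusted p = 0.00748). Both genes had separate groups.

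Nrn1 introns had 18.1 and 11.4 RPM at sustained 60 min, against 4.41 and 6.44 RPM unstimulated (1.39 ± 0.23; limma, adjusted p = 0.00808). Gmeb2 had 21.99 and 23.1 RPM, against 11.6 and 13.8 RPM (0.82 ± 0.14; limma, adjusted p = 0.00873). Slc7a8 had 12.3 and 12.1 RPM, against 8.55 and 9.97 RPM (0.39 ± 0.10; limma, adjusted p = 0.0417). Bmp3 had 1.58 and 1.27 RPM, against 3.06 and 2.34 RPM (-0.81 ± 0.18; limma, adjusted p = 0.0266), and so fell in introns at 60 min while its captured level at 360 min was higher than unstimulated. Each group here has 2 replicates. With the median of all genes set to 0, 6 of the 56 were higher and 0 lower, where 4.04% of tested genes were higher and 2.88% lower.

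**Figure D4:**
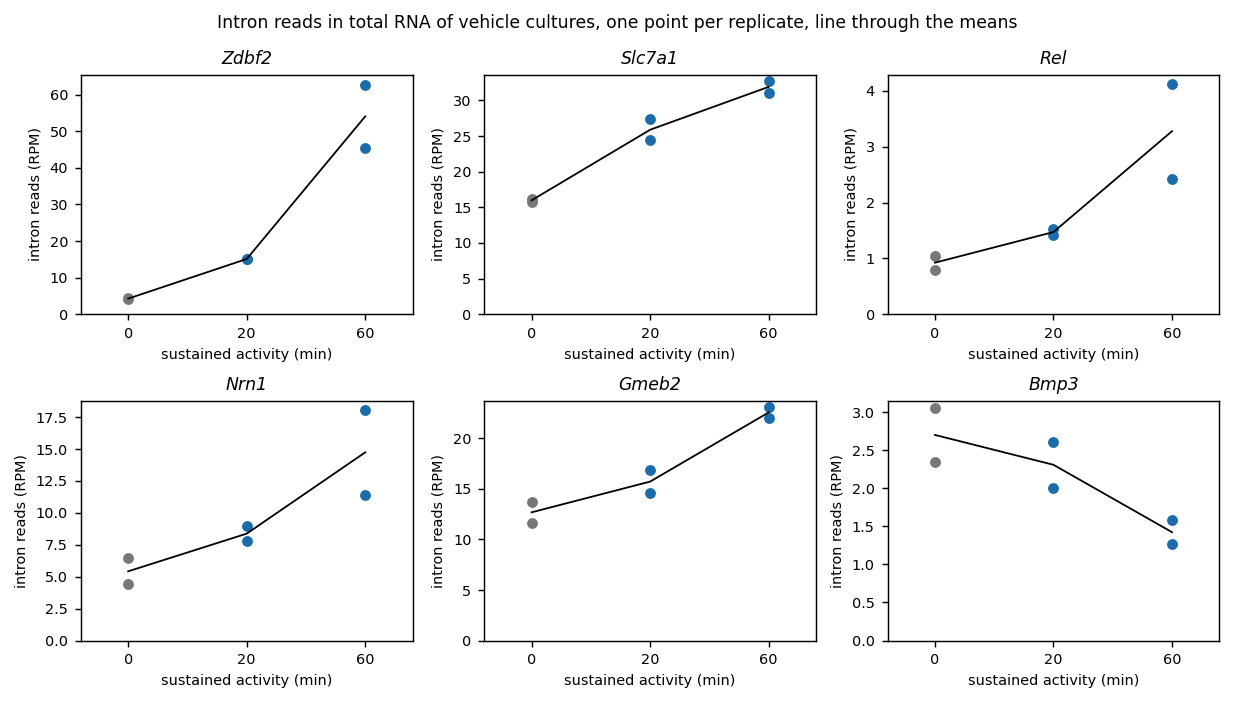
Intron RPM (linear axis) against time in minutes at 0, 20 and 60 min of sustained activity for Zdbf2, Slc7a1, Rel, Nrn1, Gmeb2 and Bmp3, with times drawn equally spaced, 1 point per replicate (n = 2) and lines through the means. Zdbf2 reaches 62.6 and 45.6 RPM at 60 min, against 4.15 and 4.39 RPM unstimulated, and Bmp3 is the one that is lower at 60 min.

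In the enhancer capture, the deposited table names a nearest gene for each region, and 41 of the 343 tested regions name 21 of the 64 genes. At 60 min of sustained activity limma called 2 of the 41 higher than unstimulated, where 9.33% of all regions were higher. The first was chr11:74985460-74986620 (mm9, as the table gives it, which does not say whether starts count from 0), named to Omg, with 199, 171, 30.7 and 65.7 against 0.321, 1.35, 0.501 and 0.547 unstimulated in the table's normalised signal. Its log2 change was 6.77 ± 1.09 (limma, adjusted p = 3e-05). The other region named to Omg, chr11:79397260-79398270, lies megabases away on the same chromosome and was not called (-0.58 ± 1.08; limma, adjusted p = 0.891); no mm9 annotation was used to check the names. The second called region was chr3:52001620-52003210, named to Maml3, with 14.5, 6.91, 1.57 and 2.98 against 1.30, 0, 0.220 and 0.286 (3.22 ± 1.05; limma, adjusted p = 0.0442). With the median of all regions set to 0, 2 of the 41 were higher and 1 lower, against 8.16% and 1.75% of all regions. Both called regions were higher in every stimulated replicate than in any unstimulated one. The region named to Omg was called in each of the 8 fits that left out 1 replicate and with edgeR (adjusted p = 0.00176). The region named to Maml3 was called in 2 of the 8, and was lost with edgeR (adjusted p = 0.077) and with a pseudocount 4 times higher (limma, adjusted p = 0.142). With the replicate number as a block 2 of the 41 were higher and 1 lower.

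Visual cortex gave a second setting, in which light was compared with darkness in the intact tissue. Of the 64 genes, 56 were tested there; 5430416O09Rik, Bves, Col10a1, Mlf1, Popdc3, Rab39, Serpinb2 and Sostdc1 did not pass the filter. At 30 min of sustained light after corn oil, limma called 14 of the 56 higher than in darkness and 0 lower, where 33.1% of the tested panel was higher. The 14 were Gem, Nrn1, Nppc, Sult2b1, Osgin2, Trip10, Tnfrsf12a, Fezf2, Omg, Fam126b, Stc2, Hdac9, Pnoc and Gmeb2. The median log2 change was 0.19 over the 56 genes and 0.31 over all tested. With that median of all genes set to 0, 1 of the 56 was higher and 3 lower, where 4.51% and 3.38% of the panel were, so most of these calls depend on the control genes as the scale. The count also rests on the 2 dark samples: it was 3 without dark replicate 1 and 2 without dark replicate 2, against 8 to 10 without single light samples. Gem and Nrn1 were called in all 5 of these fits, and Gmeb2, Pnoc and Stc2 in 0.

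Gem had 0.0233, 0.0235 and 0.0254 in light at 30 min, against 0.0126 and 0.00980 in darkness (0.93 ± 0.16; limma, adjusted p = 0.00123). Nrn1 had 1.02, 1.03 and 1.05, against 0.648 and 0.719 (0.60 ± 0.11; limma, adjusted p = 0.00202). Nppc had 0.0212, 0.0248 and 0.0267, against 0.0124 and 0.0117 (0.84 ± 0.22; limma, adjusted p = 0.0112). Every light value lay above both dark values in these genes.

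Sult2b1 had 0.132, 0.132 and 0.137 in light at 30 min, against 0.0823 and 0.0661 in darkness (0.83 ± 0.22; limma, adjusted p = 0.0115). Osgin2 had 0.142, 0.120 and 0.133, against 0.0858 and 0.0942 (0.53 ± 0.15; limma, adjusted p = 0.0144). Their groups did not overlap. At 150 min neither passed, and Nppc at 150 min had a log2 change of -0.49 ± 0.22 (limma, adjusted p = 0.159).

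At 150 min of sustained light limma called 3 of the 56 genes higher and 0 lower, where 9.02% of the tested panel was higher. With the median of all genes set to 0, 2 were higher and 2 lower, against 4.14% and 1.5% of the panel. With edgeR, and with a pseudocount 4 times higher, 5 were higher and 1 lower. Leaving out 1 sample gave 2 called genes without either dark sample, 4 without light replicate 1 or 2 and 5 without light replicate 3. Lipg and Gem were called in all 5 of these fits and Klhl4 in 3. Lipg had 0.0411, 0.0305 and 0.0341 in light, against 0.0134 and 0.0138 in darkness (1.18 ± 0.16; limma, adjusted p = 0.000287). Gem had 0.0239, 0.0203 and 0.0186, against 0.0102 and 0.00932 (0.89 ± 0.16; limma, adjusted p = 0.00252). Klhl4 had 0.221, 0.195 and 0.183, against 0.148 and 0.145 (0.44 ± 0.11; limma, adjusted p = 0.0174). The groups of all 3 were separate, and Lipg at 30 min had a log2 change of 0.32 ± 0.16 (limma, adjusted p = 0.133).

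**Figure D5:**
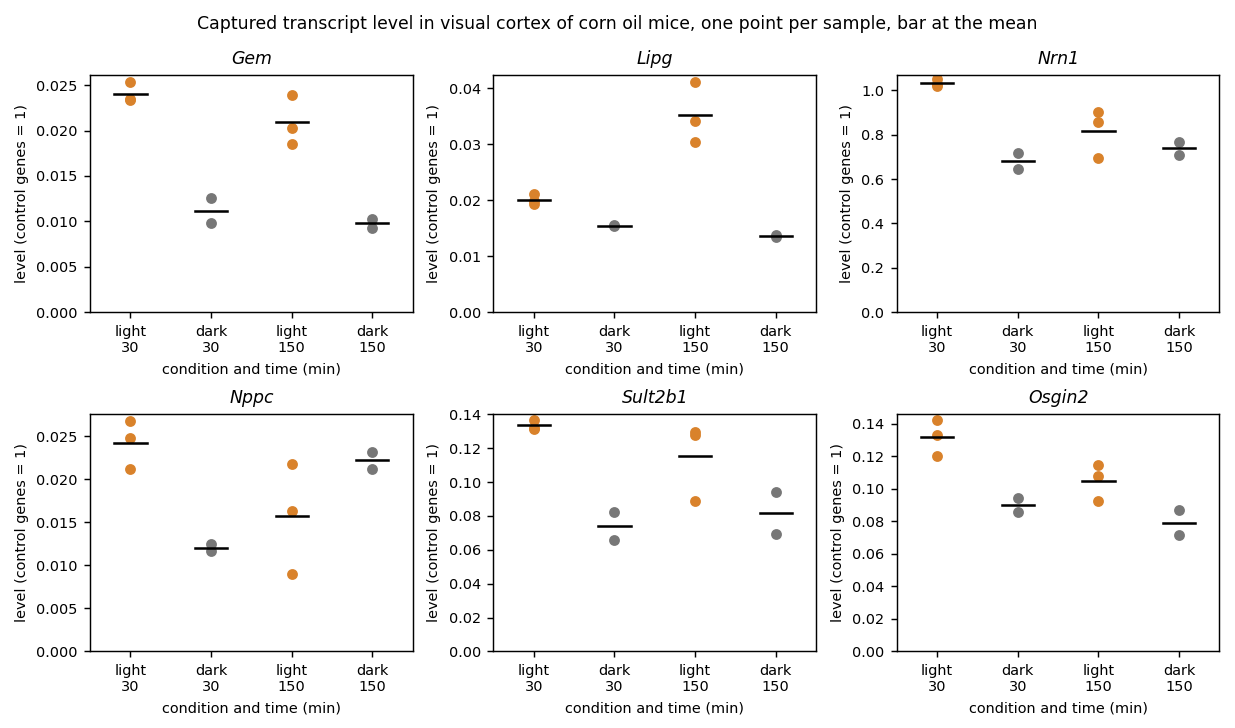
Captured level (linear axis, a level of 1 is the mean of the control genes) of Gem, Lipg, Nrn1, Nppc, Sult2b1 and Osgin2 in visual cortex of corn oil mice, one point per sample and bars at the means, in light for 30 min, dark for 30 min, light for 150 min and dark for 150 min. Gem is higher in light at both times, and Lipg at 150 min has 0.0305 to 0.0411 in light against 0.0134 and 0.0138 in the dark.

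In mice given SL327, 150 min of sustained light gave 0 called genes of the 56 with limma, where 0.376% of the panel was called. Unadjusted p was under 0.05 for 9 of them, and edgeR called 0. One of the 3 SL327 light samples at 150 min held 379220 reads, against 2030692 and 2186391 in the others. The interaction below rests on the same samples. Lipg came closest, with 0.0297, 0.0281 and 0.0178 in light against 0.0158 and 0.0133 in darkness (0.66 ± 0.16; limma, adjusted p = 0.0871). The difference between the light responses with SL327 and with corn oil was tested as an interaction. There limma called 0 of the 56, against 0.376% of the panel, and edgeR called 0. Unadjusted p was under 0.05 for 12 of the 56. The panel's share at that unadjusted p is not given here, so nothing is read from the 9 and the 12. The smallest adjusted p was 0.0659, shared by Klhl4 (-0.64 ± 0.15), Mfap3l (-0.61 ± 0.16) and Ripk2 (-0.80 ± 0.22). Ripk2 had 0.0238, 0.0282 and 0.0285 in SL327 light, against 0.0362 and 0.0330 in SL327 darkness, and 0.0400, 0.0361 and 0.0351 in corn oil light, against 0.0265 and 0.0254 in corn oil darkness. These 3 genes therefore had opposite signs in the 2 treatments without passing the test.

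Brief light after corn oil called 0 of the 55 tested genes at 30 min, against 1.15% of the panel, and 0 at 150 min, against 0%. Unadjusted p was under 0.05 for 4 of the 55 at 30 min and for 5 at 150 min, and edgeR called 0 at both. Gem had 0.0119, 0.0169 and 0.0168 in brief light at 30 min, against 0.00683, 0.0147 and 0.0113 in darkness, and these overlapped (0.40 ± 0.32; limma, adjusted p = 0.690). In that table Cr2 and Gpr3 also did not pass the filter, and Rab39 did.

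The early transcription factors and the other lists gave the following counts in the same fits. Of 16 AP-1 and neuronal transcription factors, limma called 12 higher at 60 min of sustained activity in U0126 and 10 at 360 min, both against unstimulated, and 2 at 360 min against 60 min. Brief activity at 60 min called 10 of the 16. In visual cortex 9 of 15 were higher at 30 min of sustained light and 4 of 15 at 150 min, and 14 of 15 were higher in introns at 60 min. Of the 15 known late response genes, 12 were higher in U0126 at 360 min than unstimulated, 8 higher than at 60 min, and 2 of 15 were higher in light at 30 min and 7 of 15 at 150 min. Of the 7 feedback regulators of ERK, 3 were higher in U0126 at 360 min.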

How the data were processed

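Captured RNA of mouse cortical neuron cultures and visual cortex, total RNA introns and captured enhancer regions were analysed. STAR, SAMtools, bedtools and the build mm9 are named, without versions, in the submitters' processing notes. The gene capture and enhancer values were deposited as a normalised signal. In the gene capture that signal is reads over the mean of 47 control genes (the geometric mean in 66 of 66 culture columns, with 0.01 added, and the arithmetic mean in 39 of 39 cortex columns). This was worked out from the values. The intron values were deposited in RPM. In each column 100% of values were whole multiples of 1 read (tolerance 0.05 reads). Of the value columns, 16 were not used: 13 repeat another column, 1 matched no sample, and 2 are identical under 2 labels. The U0126 table was deposited with the same content for sustained and for brief activity, and was used as sustained. Visual cortex headers that read sl217 or sl317 were read as SL327.

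Unstimulated cultures of 1 dissection were averaged to 1 replicate. In the enhancer capture, a U0126 sustained 60 min column known only by its group was also averaged with replicate 1 of that group. That fit thus had 39 replicates, and this average helped to set its shared spread. Tests used limma 3.58.1 (R 4.3.3) on log2(value + pseudocount), the pseudocount being the 10th percentile of non-zero values (0.00936 in the culture captures, 0.00317 and 0.00341 in the sustained and brief cortex tables, 0.248 RPM in introns, 0.229 in enhancers). Log2 changes on this scale understate changes of low genes. Features whose mean lay below the pseudocount were left out. One spread was shared by all groups of a table, p-values were adjusted by Benjamini-Hochberg over all features tested, and adjusted p under 0.05 was called. Counts at an unadjusted p under 0.05 are given without the share of all tested features, so nothing is read from them. edgeR 4.0.16 on recovered reads was an alternative. Intron libraries share the unstimulated controls, as do the culture comparisons. The scripts were tested on simulated data. Tables were handled with Python 3.11.15, numpy 2.4.6, pandas 2.3.3, scipy 1.17.1 and matplotlib 3.10.9.

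The members, gene lists and the rule for genes given in full were chosen with earlier results of these data known. That rule took the 6 genes of highest level at 360 min, the 4 with the most negative cycloheximide difference, up to 6 by adjusted p in U0126 at 360 min with those below a log2 change of 0.5, up to 6 each by adjusted p in visual cortex and in introns, and the neighbours of each threshold. Other genes named with values were added after their values were seen.

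Shared replicate numbers were checked by the correlation of deviations from group means. Every pair was over 0.1 for U0126 at 60 min (0.291 to 0.609), for brief 360 min (0.282 to 0.81) and for enhancers (0.224 to 0.636). For U0126 at 60 min and for enhancers each replicate also correlated best with the unstimulated sample of its own number. There the numbers may pair the samples, which the labels do not state. At brief 360 min replicates 1 and 7 correlated better with another number, so pairing is not established there. For brief 60 min, replicate 7 had 0.0292, so there the samples share only a number. U0126 at 360 min and the introns have 2 pairs each, with correlations of 0.539 to 0.693 and 0.844 to 0.863. With 2 pairs this check cannot decide whether the numbers pair the samples. The main fits left the number out, and counts with it as a block are given below.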

Additional observations from a re-analysis of the deposited data

Results flagged for a closer look

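For the genes given in full, 120 groups of 4 to 10 cultures were examined for a highest or lowest value far from the others of its group. Chance gives this in about 1 group in 20, and 29 values met it. Their causes were not tested.

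Several came from unstimulated replicate 5, which stood high for Dennd2c (0.0806), Gem (0.487), Gmeb2 (0.446), Hunk (0.313) and Tnfrsf12a (0.931), and low for Lppr4 (0.0594). Others came from the brief 60 min library of 8498 reads (replicate 2), high for Bmp3 (0.665), Nrn1 (0.444) and Plagl1 (1.404), and low for Fam126b (0.370), Osgin2 (0.0739) and Rel (listed at 0).

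Replicate 7 stood high in several groups. Nppc had 0.0924 at sustained 60 min, 0.0954 at brief 60 min and 0.0446 at brief 360 min. Gem had 0.293 at brief 60 min and 0.306 at brief 360 min, Tnfrsf12a had 0.302 at brief 60 min, and 9430020K01Rik had 2.27 at sustained 360 min. Col10a1 had 0.00424 at sustained 60 min and 0.00314 at brief 60 min.

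Nmbr stood high in replicate 3 of 4 groups, with 0.0686 at sustained 60 min, 0.106 at sustained 360 min, 0.0494 at brief 360 min and 0.0541 unstimulated. Col10a1 also stood high in unstimulated replicate 3 (0.00209). Lppr4 was low at sustained 60 min in replicate 1 (1.01) and at sustained 360 min in replicate 2 (2.56), and Rab39 was listed at 0 at sustained 60 min in replicate 1.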

How the results depend on the processing

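Most counts stayed within 1.5 times of those reported under other pseudocounts, without libraries of under 100000 reads, without unstimulated replicate 5 and with edgeR; leaving out that replicate, and averaging cultures of a dissection before applying the rule (62 of the 64 genes met it), were chosen after seeing the data. The exceptions are these. With the median of all genes set to 0, U0126 at 360 min called 7 genes against unstimulated and 3 against 60 min, brief 60 min called 0, light at 30 min 4 and introns at brief 20 min 0. Over the panel the split of higher to lower calls then became 30 to 44 against unstimulated and 9 to 29 against 60 min in U0126, and 12 to 9 for light at 30 min. A pseudocount 4 times higher gave 0 at brief 60 min, 6 in light at 150 min and 1 enhancer region. Brief 60 min called 0 without libraries of under 100000 reads and without unstimulated replicate 5. edgeR on recovered reads called 0 at brief 60 min, 6 in light at 150 min and 1 enhancer region, with 7 regions in all where limma called 32. With the replicate number as a block, introns called 3 genes at sustained 20 min, 14 at sustained 60 min and 2 at brief 20 min. The block gave 54 genes in U0126 at 360 min against unstimulated and 42 against 60 min, 0 at 60 min, 1 at brief 60 min, 0 at brief 360 min and 3 enhancer regions; it changed no other call count beyond 1.5 times. In visual cortex no paired analysis was possible because the columns carry no replicate number.

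Leaving out each replicate gave 26 to 44 genes in U0126 at 360 min against unstimulated and 15 to 33 against 60 min, 0 to 0 at 60 min and 0 to 0 at brief 360 min. It gave 2 to 10 in light at 30 min, 2 to 5 at 150 min, 0 to 1 with SL327, 0 to 1 for the difference between treatments and 0 to 0 in brief light. In introns it gave 0 to 0 at sustained 20 min, 3 to 5 at sustained 60 min and 0 to 1 at brief 20 min, and in enhancers 1 to 2. The rule itself kept 54 to 62 of the 64 genes without single cycloheximide-experiment cultures, 50 with 0.05 added, and 54 with a difference of at most -1.

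The sign of the U0126 change at 360 min turned for 4 uncalled genes. With the median set to 0 it was -0.92 for Rab39, -0.80 for Nmbr, -0.83 for Gem and -0.91 for Tnfrsf12a. Leaving out single replicates gave -0.10 to 0.73 for Rab39, -0.27 to 1.14 for Nmbr, -0.30 to 1.12 for Gem and -0.33 to 1.12 for Tnfrsf12a. With edgeR it was -0.029 for Gem and -0.17 for Tnfrsf12a. The causes were not tested. Groups of 2 or 3 samples and levels near the pseudocount limit all of these comparisons.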
